A study of Rattus norvegicus with 12 samples.

Results

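The 10 genes described here move calcium in muscle cells or decode its signal. They are the 4 genes of calcium/calmodulin-dependent kinase II (CaM kinase II; Camk2a, Camk2b, Camk2d, Camk2g), the calsequestrins Casq1 and Casq2, the sarcoplasmic reticulum pumps Atp2a1 and Atp2a2, the release channel gene Ryr1 and the L-type calcium channel gene Cacna1c. All were chosen by name from a table of 30562 rat genes. Of the 10 symbols, 9 were in the table, each at 1 locus, and 8 of these had a mean of at least 1 TPM (transcripts per 1e+06), the level required for testing, which 12263 genes of the table reached. Ryr1 was too low to be tested, and no row carried the symbol Atp2a1.

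The cells were H9c2, a line derived from embryonic rat heart, which the labels call cardiomyocytes. Polyadenylated RNA was sequenced from 12 libraries, 3 in each of 4 groups: untreated control, methylmalonic acid (MMA), folic acid (FA), and both together (MMA+FA). Methylmalonic acid builds up where cobalamin-dependent breakdown of propionate fails, and folic acid is folate in the form made for supplements. No dose or exposure time is given in the sources used here. One line was used throughout, and nothing in the labels says that the libraries of a group came from separate cultures, so p-values measure the spread between these libraries only.

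In a muscle cell, depolarization opens L-type channels in the surface membrane, and calcium then leaves the sarcoplasmic reticulum through ryanodine receptors. Calsequestrin binds calcium inside that store with low affinity and high capacity, and the SERCA pumps encoded by the Atp2a genes return calcium to it. Calcium bound to calmodulin activates CaM kinase II, a multimer that stays active after it has phosphorylated itself and that acts on calcium channels, pumps and transcriptional repressors. The alpha and beta forms are the main forms of brain, and the delta and gamma forms are the main forms of heart and most other tissues.

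TPM is a length-scaled share of a fixed total and carries no depth, so the counting error of a gene is unknown. Differences are between mean log2(TPM + 1) values, a scale on which changes of low genes are understated, with the standard error (SE) of limma. A gene was called where its Benjamini-Hochberg adjusted p over all genes tested was under 0.05. The median tested gene moved by -0.12 on this scale with MMA+FA, by -0.07 with MMA and by -0.05 with FA, each against control. Values under median-ratio scaling, which divides each library by its typical ratio to the other libraries, are therefore given where they alter a call. Most markers of mature cardiomyocytes were near 0. A mean under 1 TPM was found for 9 of the 11 measured, among them the myosin gene Myh6 (0 to 0.11 TPM over the 12 libraries) and the cardiac release channel gene Ryr2 (0.01 to 0.04). Of 12 skeletal muscle and myoblast markers, 4 reached a mean of 1 TPM. The myogenic factor genes Myod1 (28.2 to 74.2) and Myog (13.4 to 22.2) were among them. The myogenic factor genes Myf5 (0 to 0.08) and Myf6 (0 to 0.17) were near 0, and none of 6 endothelial markers reached a mean of 1 TPM.

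The members spanned a wide range of levels. Casq2 (ENSRNOG00000016243), the calsequestrin of heart and slow muscle, was the most abundant at 381 to 502 TPM over the 12 libraries, followed by Atp2a2 (ENSRNOG00000001285) at 179 to 199 TPM. Camk2d (ENSRNOG00000011589) lay at 46.5 to 63.0 TPM and Camk2g (ENSRNOG00000009783) at 25.4 to 30.5 TPM. Cacna1c (ENSRNOG00000007090) at 13.2 to 18.8 TPM and Casq1 (ENSRNOG00000006930), the calsequestrin of fast muscle, at 9.71 to 14.2 TPM were the only neighbours in this order whose ranges overlapped. Camk2a (ENSRNOG00000018712) lay at 2.10 to 8.53 TPM, Camk2b (ENSRNOG00000052080) at 0.83 to 1.41 TPM and Ryr1 (ENSRNOG00000020557) at 0.19 to 0.35 TPM. The levels of Casq2, Atp2a2 and Camk2d exceeded those of 97.4%, 94.0% and 77.5% of tested genes, and that of Camk2a exceeded 16.9%.

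**Figure D1:**
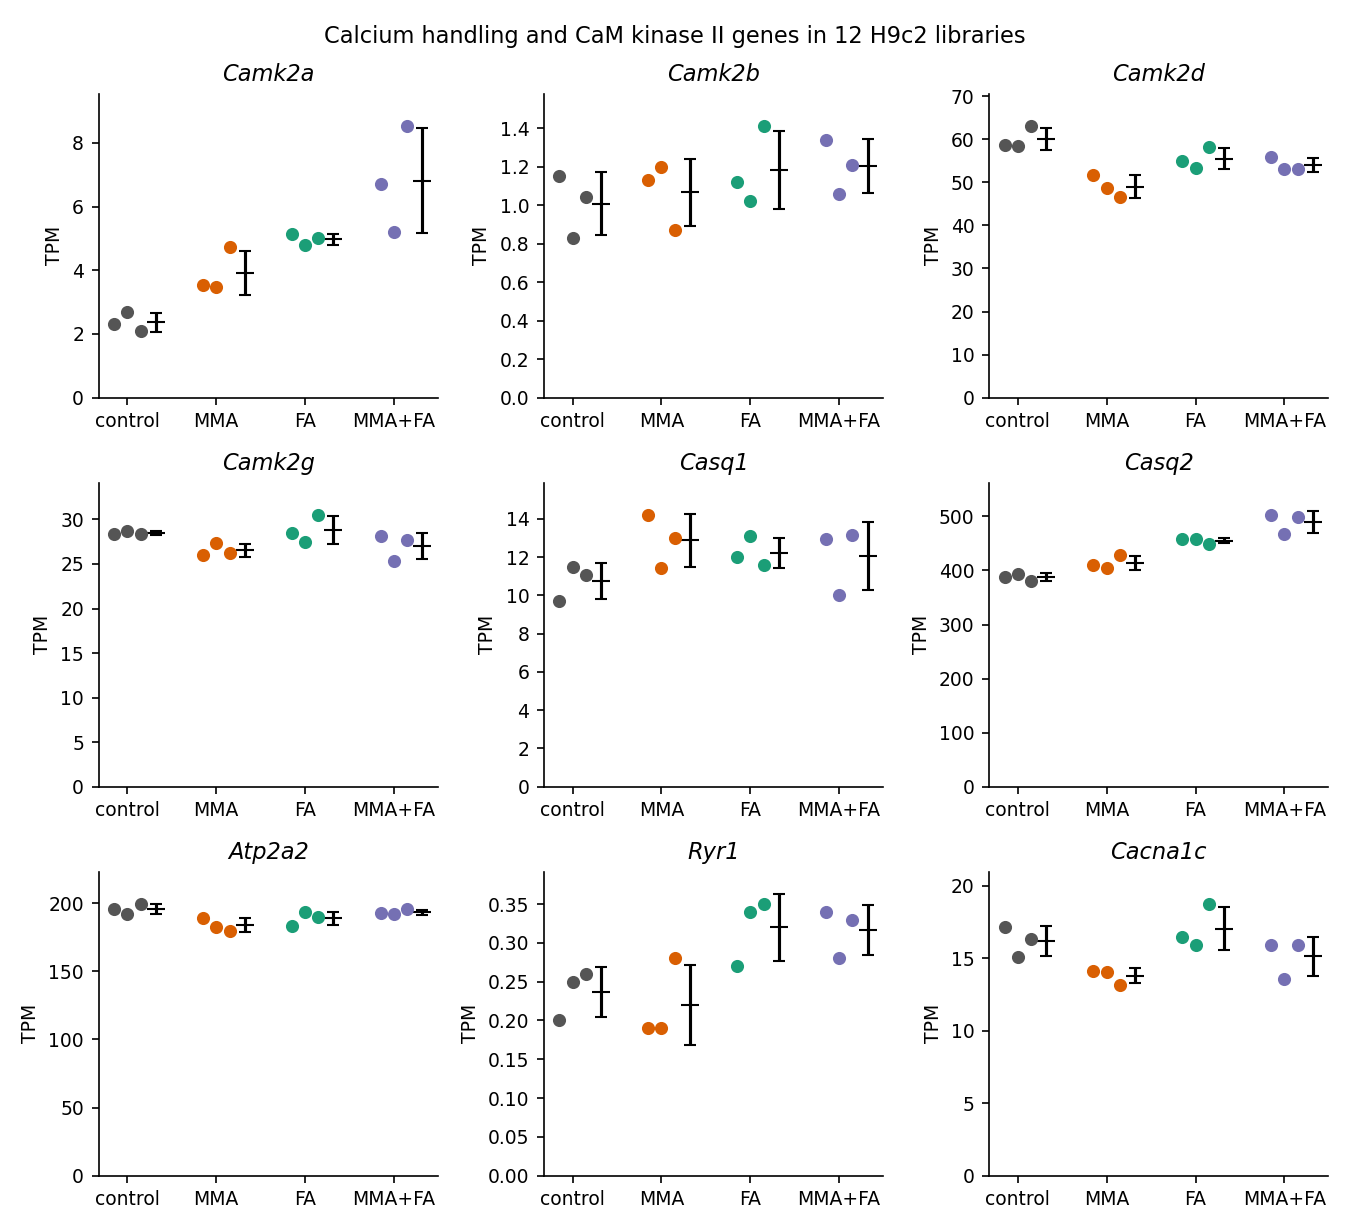
TPM of each of the 9 measured members in the 3 libraries of each group (points), with the group mean and SD (black bars, n = 3); each panel has its own axis from 0. Camk2a and Casq2 are lowest in the control libraries and highest in the MMA+FA libraries, Camk2d is lowest in the MMA libraries, and Atp2a2 stays between 179 and 199 TPM.

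Among the CaM kinase II genes, the low-abundance alpha form changed most. Camk2a stood at 2.31, 2.70 and 2.10 TPM in the control libraries, at 3.54, 3.49 and 4.72 TPM with MMA, at 5.13, 4.80 and 5.0 TPM with FA, and at 6.72, 5.21 and 8.53 TPM with MMA+FA. Every treated library lay above every control library, and every MMA+FA library above every library of the other groups. The mean of the MMA+FA group was 2.88 times that of control (6.82 ± 1.66 against 2.37 ± 0.304 TPM, SD, n = 3), with replicate 3 the highest and replicate 2 the lowest.

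Camk2a rose in 4 comparisons. FA raised it by 0.83 on the log2 scale without MMA (SE 0.14, adjusted p = 0.00765 in limma) and by 0.66 in its presence (SE 0.14, adjusted p = 0.00986), 2 comparisons that share no library. MMA raised it by 0.54 without FA (SE 0.14, adjusted p = 0.0206), but leaving out 1 library could end that call: MMA replicate 3 (then 0.43, adjusted p = 0.0888), control replicate 1 (0.53, adjusted p = 0.0644) or control replicate 3 (0.48, adjusted p = 0.0762). With no filter on low values its adjusted p was 0.0507. In the presence of FA, MMA changed it by 0.37 (SE 0.14), which did not pass (adjusted p = 0.111). Both acids together raised it by 1.20 against control (SE 0.14, adjusted p = 0.000127), and by 1.47 with a pseudocount of 0.1 TPM. The interaction of the 2 acids was -0.17 with a 95% interval from -0.61 to 0.26, so a difference between the effect of one acid with and without the other was not resolved.

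Camk2d, the predominant CaM kinase II transcript of these cells, moved the other way with MMA. It was at 58.7, 58.5 and 63.0 TPM in control libraries and at 51.7, 48.6 and 46.5 TPM with MMA, with no overlap between the groups. This fall of 0.29 on the log2 scale (SE 0.05, adjusted p = 0.00418) was called with any 1 library left out and under median-ratio scaling (-0.21, adjusted p = 0.0127). With FA the values were 54.8, 53.3 and 58.1 TPM, a difference from control of -0.11 that did not pass (adjusted p = 0.155). With MMA+FA they were 55.8, 53.1 and 53.1 TPM, all below control. The fall of 0.15 (adjusted p = 0.0358) was not called under median-ratio scaling (-0.02, adjusted p = 0.73), nor when any of 4 single libraries was left out, namely control replicate 3 (-0.12, adjusted p = 0.142), control replicate 1 (-0.17, adjusted p = 0.0531), MMA+FA replicate 2 (-0.14, adjusted p = 0.0963) and MMA+FA replicate 3 (-0.14, adjusted p = 0.0942). With FA added to MMA, Camk2d differed by 0.14 (adjusted p = 0.0953), and was called higher under median-ratio scaling (0.19, adjusted p = 0.0202). With MMA added to FA it differed by -0.04, with a 95% interval from -0.15 to 0.08. The test of the difference between the MMA effects with and without FA gave an interaction of 0.25 (SE 0.07), with an unadjusted p of 0.00437 and an adjusted p of 0.0941 in limma, and so it did not pass.

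The remaining kinase genes were not called in any comparison. Camk2g lay between 28.3 and 28.7 TPM in control libraries, 26 and 27.3 with MMA, 27.5 and 30.5 with FA, and 25.4 and 28.1 with MMA+FA. Its differences from control were -0.10 with MMA (95% interval -0.21 to 0.02), 0.02 with FA (-0.10 to 0.13) and -0.07 with MMA+FA (-0.19 to 0.04). Camk2b, near the level required for testing, had group means from 1.01 ± 0.163 TPM in control to 1.20 ± 0.14 TPM with MMA+FA (SD, n = 3). Its ranges overlapped between all groups.

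As TPM is scaled to transcript length, the 4 forms can be summed. The sum was 90.4 to 94.6 TPM in control libraries, 78.4 to 82.4 TPM with MMA, 86.6 to 95 TPM with FA and 84.8 to 91.9 TPM with MMA+FA, so that the MMA libraries lay below the other 9. Camk2d made up 58.7% to 66.7% of the sum and Camk2g 29.9% to 33.9%. The Camk2a share was 2.58 ± 0.379% in control, 4.88 ± 0.986% with MMA, 5.51 ± 0.234% with FA, and it reached 7.63 ± 1.66% with MMA+FA (SD, n = 3). These shares are a description, without a test.

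**Figure D2:**
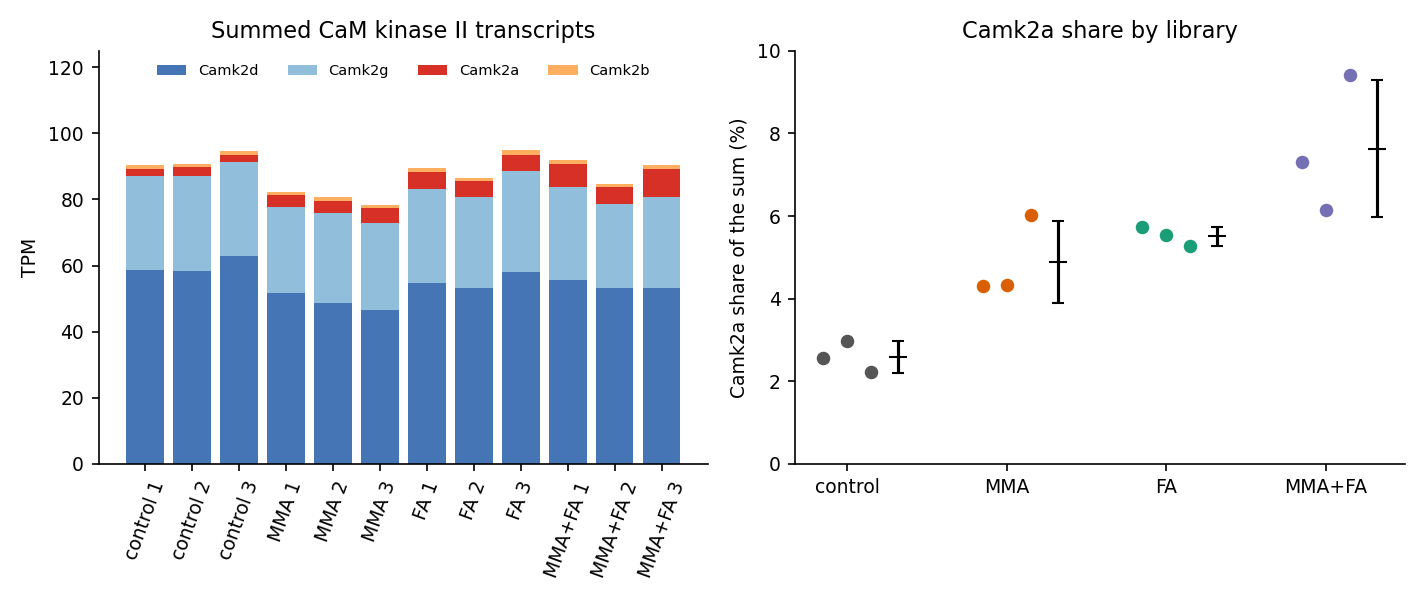
Left, TPM of the 4 CaM kinase II genes stacked for each of the 12 libraries; right, the share of Camk2a in that sum by group (points, libraries; black bars, mean and SD, n = 3). Camk2d fills 58.7% to 66.7% of every column, and the Camk2a share is 2.22% to 2.98% in control and 6.15% to 9.42% with MMA+FA.

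In the calcium store, Casq2 rose with FA. It measured 388, 394 and 381 TPM in control libraries, 410, 404 and 429 TPM with MMA, 458, 458 and 450 TPM with FA, and 502, 467 and 500 TPM with MMA+FA. The 4 groups did not overlap and kept this order. FA raised Casq2 by 0.23 without MMA (SE 0.04, adjusted p = 0.00619) and by 0.24 in its presence (SE 0.04, adjusted p = 0.00141), and both acids together raised it by 0.34 against control (SE 0.04, adjusted p = 9.13e-05). These 3 calls held with any 1 library left out. The MMA effects, 0.09 without FA (adjusted p = 0.0925) and 0.10 with FA (adjusted p = 0.0926), did not pass as deposited and passed under median-ratio scaling (0.18, adjusted p = 0.0137, and 0.18, adjusted p = 0.0235). The interaction was 0.01, with a 95% interval from -0.11 to 0.12.

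Its fast-muscle counterpart Casq1 was not called in any comparison. The values were 9.71, 11.5 and 11.1 TPM in control libraries, 14.2, 11.4 and 13.0 with MMA, 12, 13.1 and 11.6 with FA, and 13.0, 9.99 and 13.2 with MMA+FA. MMA+FA replicate 2 lay within the control range while the other libraries of its group lay above it. The differences from control were 0.24 with MMA (95% interval 0.01 to 0.46, adjusted p = 0.126), 0.17 with FA (-0.06 to 0.40) and 0.14 with MMA+FA (-0.09 to 0.37). Casq2 exceeded Casq1 by 28.9 to 46.7 times over the 12 libraries.

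Casq2 and Camk2a varied together. Pearson's r between their log2(TPM + 1) values was 0.97 over the 12 libraries, the highest of the 28 pairs of tested members, and the next was 0.88 for Camk2g with Cacna1c. Between Camk2a and Camk2d it was -0.40. These values include the differences between groups, and all genes of a library share its total, so they describe likeness only.

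**Figure D3:**
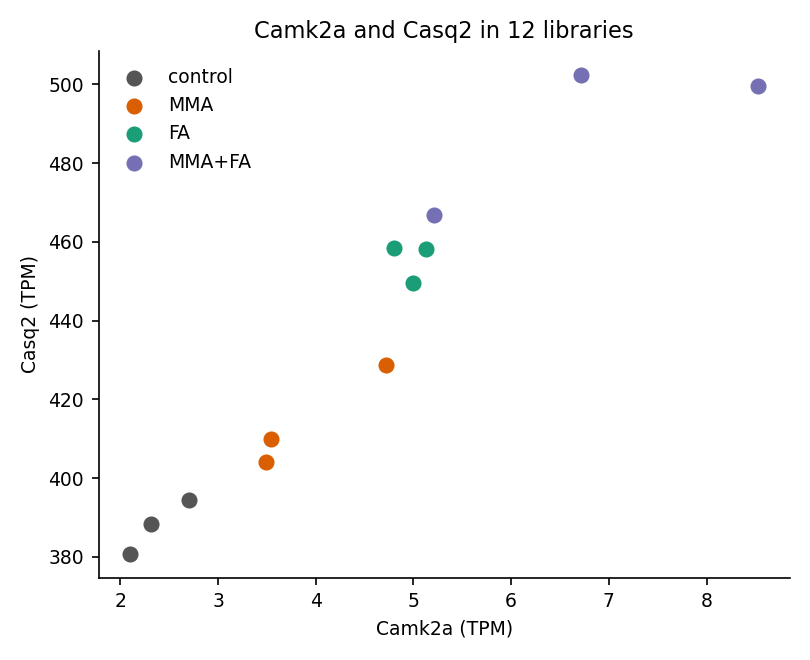
TPM of Camk2a (horizontal) and Casq2 (vertical) in the 12 libraries, coloured by group; axes do not start at 0. Control libraries lie at the lower left (Camk2a 2.10 to 2.70, Casq2 381 to 394 TPM) and MMA+FA libraries at the upper right (5.21 to 8.53 and 467 to 502 TPM).

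The annotated promoters of the pair that rose together and of Camk2d, which fell with MMA, are shown to compare their sequence. They run from 250 bases before to 50 after the RefSeq transcript start in build GRCr8, which is not the build named for the expression values (mRatBN7.2), and it was not tested whether H9c2 cells use these starts. Capitals mark E-boxes (CANNTG, the core bound by myogenic factors such as MyoD), a MEF2 motif, and GC boxes (GGGCGG or its reverse complement CCGCCC), searched on both strands, and no 2 marked motifs overlap. The plus-strand regions are chr18:56648930-56649229 for Camk2a, chr2:192214306-192214605 for Casq2 and chr2:217698301-217698600 for Camk2d.
Camk2a: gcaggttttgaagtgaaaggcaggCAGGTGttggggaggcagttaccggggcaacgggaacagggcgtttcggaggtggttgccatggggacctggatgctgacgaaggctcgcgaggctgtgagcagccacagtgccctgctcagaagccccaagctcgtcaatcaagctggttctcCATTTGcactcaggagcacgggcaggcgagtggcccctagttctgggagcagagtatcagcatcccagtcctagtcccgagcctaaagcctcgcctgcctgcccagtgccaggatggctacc
Casq2: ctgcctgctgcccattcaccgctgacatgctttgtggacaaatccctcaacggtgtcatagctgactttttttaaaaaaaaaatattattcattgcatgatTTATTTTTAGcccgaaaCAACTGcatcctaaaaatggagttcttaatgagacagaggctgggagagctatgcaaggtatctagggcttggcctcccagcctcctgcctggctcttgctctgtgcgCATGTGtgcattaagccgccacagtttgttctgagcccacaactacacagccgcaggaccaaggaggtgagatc
Camk2d: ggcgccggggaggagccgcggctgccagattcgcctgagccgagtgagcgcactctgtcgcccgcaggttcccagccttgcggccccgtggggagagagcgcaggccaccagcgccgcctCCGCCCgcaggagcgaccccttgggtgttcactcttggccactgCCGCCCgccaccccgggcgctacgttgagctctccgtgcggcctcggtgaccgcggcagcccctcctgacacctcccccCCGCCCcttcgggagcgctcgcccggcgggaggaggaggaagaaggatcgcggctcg

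Camk2a and Casq2 each held 2 E-boxes and no GC box in this window, and Casq2 held the MEF2 motif at position -149 from the start. Camk2d held 3 GC boxes and no E-box, as did Camk2g with 9 GC boxes and Camk2b with 6. The letters did not follow the calls over all members: Casq1, called in no comparison, held 3 E-boxes and 1 GC box, and Cacna1c held 1 E-box and no GC box. Atp2a2 held 1 E-box and 3 GC boxes, and Ryr1 1 and 2. Among the 33469 rat promoters of this length, 72.1% held an E-box, 33.1% a GC box and 3.29% a MEF2 motif. GC content was 61.3% for Camk2a, 47.7% for Casq2 and 74.7% for Camk2d, against a median of 51.7%. A match of letters is a description and not a bound site.

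The pump gene Atp2a2, which encodes SERCA2, varied little. It measured 196, 192 and 199 TPM in control libraries, 189, 183 and 179 with MMA, 183, 193 and 190 with FA, and 193, 192 and 196 with MMA+FA. The MMA libraries lay below the control libraries, but the difference of -0.09 (95% interval -0.17 to -0.01) did not pass (adjusted p = 0.0865). Against control, Atp2a2 differed by -0.02 with MMA+FA as deposited (adjusted p = 0.735) and was called higher under median-ratio scaling (0.11, adjusted p = 0.026), as it was against MMA (0.12, adjusted p = 0.0345). Its F test gave an adjusted p of 0.158 as deposited and of 0.0369 under that scaling. The ratio of Casq2 to Atp2a2 was 1.91 to 2.05 in control libraries, 2.16 to 2.39 with MMA, 2.37 to 2.50 with FA and 2.43 to 2.61 with MMA+FA. A ratio within a library does not depend on its scaling.

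The symbol Atp2a1, for the SERCA1 pump of fast muscle, was not matched. A locus under another symbol, AABR07005775.1 (ENSRNOG00000047124), is described in the table as that ATPase. It was not a member by name, was chosen after its values were seen, and is not counted with them. It measured 2.97, 3.33 and 2.76 TPM in control libraries and 5.10, 3.55 and 4.16 TPM with MMA+FA (log2 0.38, SE 0.12, adjusted p = 0.0232), with all of the latter above control. With MMA alone (3.26 to 3.90 TPM) and FA alone (3.05 to 3.96 TPM) it did not pass (adjusted p = 0.349 and 0.296).

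Of the calcium channel genes, Cacna1c was called in the F test across the 4 groups and Ryr1 was near 0. Cacna1c, the pore subunit of the cardiac L-type channel, measured 17.2, 15.1 and 16.3 TPM in control libraries, 14.2, 14.1 and 13.2 with MMA, 16.5, 15.9 and 18.8 with FA, and 15.9, 13.6 and 15.9 with MMA+FA. The MMA libraries lay below the control and FA libraries. The F test gave an adjusted p of 0.0434 (0.0607 under median-ratio scaling), and no single comparison was called. MMA against control gave -0.22 (SE 0.08, adjusted p = 0.067), which passed without FA replicate 3 (adjusted p = 0.0437) or MMA+FA replicate 2 (adjusted p = 0.0466). Ryr1, the release channel of skeletal muscle, measured 0.20, 0.25 and 0.26 TPM in control libraries, 0.19, 0.19 and 0.28 with MMA, 0.27, 0.34 and 0.35 with FA, and 0.34, 0.28 and 0.33 with MMA+FA. The 6 libraries with FA lay at or above 0.27 TPM and the 6 without it at or below 0.28. With no filter on low values, Ryr1 was not called in any comparison (adjusted p from 0.111 to 1).

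Counted over the 8 members tested, 2 were called with MMA against control, Camk2a higher and Camk2d lower, where 20.4% of all tested genes were called (3.85% higher and 16.5% lower). With FA against control 2 members were called, both higher, against 12.4% of all genes (3.67% higher and 8.7% lower). With MMA+FA against control 3 were called, 2 higher and 1 lower, against 39.3% of all genes (6.67% higher and 32.6% lower). FA added to MMA gave 2 calls, both higher, against 13.7% of all genes (4.19% higher and 9.53% lower). MMA added to FA gave 0 calls in limma, against 10.5% of all genes (1.6% higher and 8.9% lower). Before adjustment, 2 of the 8 members had a p under 0.05 there, beside 3594 of the 12263 tested genes. The interaction gave 0 calls in limma, against 2.41% of all genes (0.938% higher and 1.47% lower). Its p before adjustment was under 0.05 for 2 members, beside 2163 of the 12263 tested genes. The F test gave 4 calls against 41%. The members' counts with MMA, with both acids together and in the F test are thus near the share of all genes. Their median log2 difference was -0.02 for MMA, 0.09 for FA and 0.06 for MMA+FA against control, beside medians of -0.07, -0.05 and -0.12 for all tested genes. Comparisons against control share the control libraries.

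Median-ratio scaling moved the balance of calls upward for members and for all genes. It called 3 members with MMA, 2 higher and 1 lower, where 15.2% of all genes were called (8.46% higher and 6.7% lower). It called 2 with FA, both higher, against 9.5% (5.85% and 3.65%), and 3 with MMA+FA, all higher, against 29.4% (15.9% and 13.5%), where Atp2a2 took the place of Camk2d. It called 4 with FA added to MMA, all higher, against 12.6% (6.47% and 6.17%), namely Camk2a, Casq2, Camk2d and Atp2a2. It called 1 with MMA added to FA, Casq2, against 5.94% (3.54% and 2.41%), 0 for the interaction against 2.67% (1.04% and 1.63%), and 4 in the F test against 32.2%. The libraries of the groups compared did not overlap for 6 of the 8 members with MMA against 45.3% of all tested genes, for 4 with FA against 33.7%, and for 4 with MMA+FA against 53.7%. With FA added to MMA this held for 4 members against 32.7% of all genes, and with MMA added to FA for 2 against 28.7%.

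**Figure D4:**
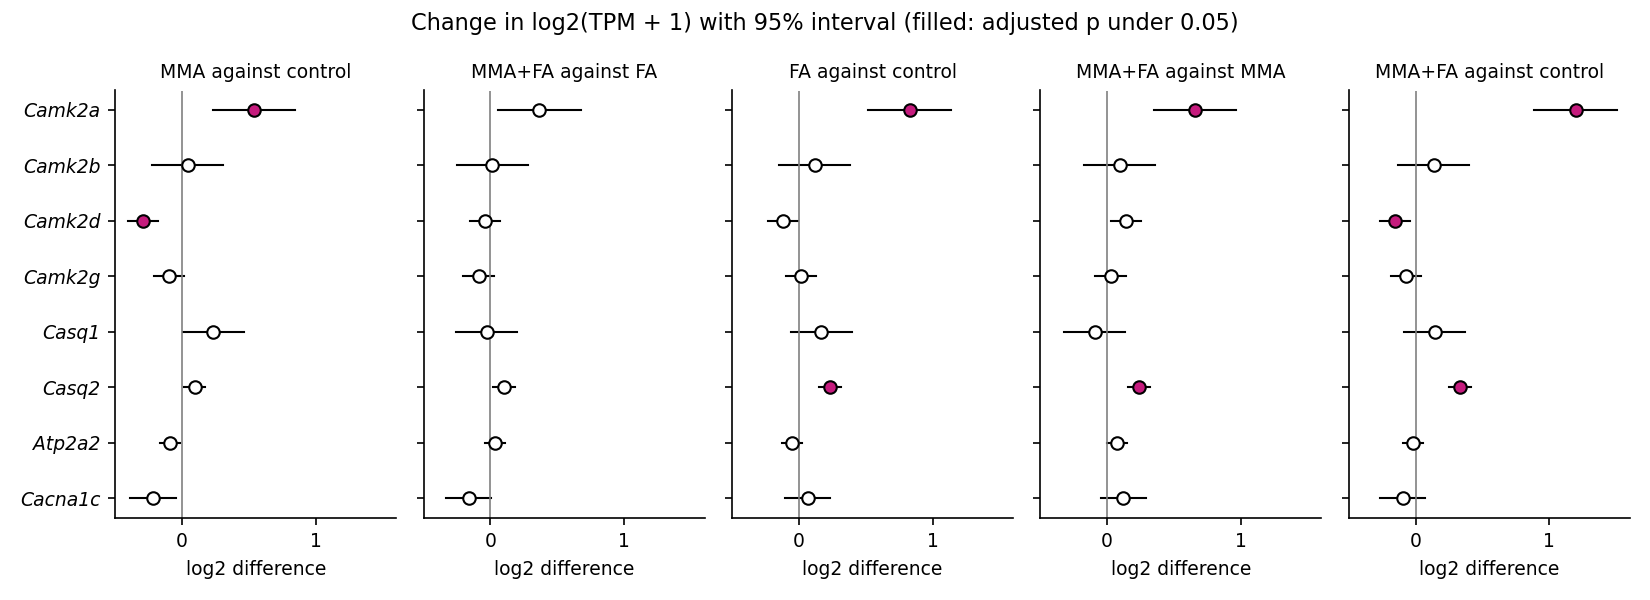
Difference in log2(TPM + 1) of the 8 tested members in 5 comparisons, with 95% intervals from limma; filled points have an adjusted p under 0.05. The first pair of panels shows MMA without and with FA, the next pair FA without and with MMA; Camk2a is the farthest from 0 in each of the 5 panels.

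Beyond the members, 97 further calcium genes in 7 groups were listed from general knowledge, of which 94 were in the table and 68 were tested. With MMA+FA against control 8 rose and 22 fell, or 15 and 11 under median-ratio scaling (median -0.10, or 0.01 under median-ratio scaling). Over all tested genes 6.67% were higher and 32.6% lower in that comparison, or 15.9% and 13.5% under median-ratio scaling. As deposited, the lower calls thus outnumbered the higher ones among all genes too. Under median-ratio scaling the higher calls outnumbered the lower ones, both here and among all genes. With MMA 0 rose and 12 fell (4 and 5 under median-ratio scaling), where 3.85% of all genes were higher and 16.5% lower. With FA 4 rose and 8 fell (7 and 6), where 3.67% were higher and 8.7% lower. FA added to MMA gave 11 higher and 3 lower, against 4.19% and 9.53% of all genes. Under median-ratio scaling it gave 13 and 3, against 6.47% and 6.17%. MMA added to FA gave 3 higher and 7 lower (6 and 0 under median-ratio scaling), against 1.6% and 8.9%. The interaction gave 0 calls in limma against 2.41% of all genes, and 2 calls under median-ratio scaling against 2.67%. At an unadjusted p under 0.05 in limma it had 15 of the 68 genes, against 2163 of the 12263 tested genes.

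Among genes of the release machinery, Tmem38a and Jph2 rose with MMA+FA. Tmem38a, which encodes a potassium channel of the sarcoplasmic reticulum that balances charge during calcium release, measured 8.73, 9.91 and 7.55 TPM in control libraries and 14.2, 12.8 and 14.2 TPM with MMA+FA (log2 0.60, SE 0.10, adjusted p = 0.000858). Jph2, whose product holds the surface membrane close to the store, went from 55.1 ± 3.43 to 68.3 ± 2.83 TPM (SD, n = 3; log2 0.31, adjusted p = 0.00477). FA raised both with MMA present, by 0.48 and 0.36 (adjusted p = 0.00917 and 0.00497). With FA alone they rose by 0.37 and 0.26, calls that were each lost in 4 of the 12 fits with 1 library left out. Of 8 tested genes of release channels, triad and junction, 2 rose and 0 fell with MMA+FA, and 4 and 0 under median-ratio scaling, where 6.67% of all genes were higher and 32.6% lower (15.9% and 13.5% under that scaling). With MMA alone 0 rose and 2 fell, and 0 were called under median-ratio scaling. With MMA alone 3.85% of all genes were higher and 16.5% lower (8.46% and 6.7% under that scaling). Ryr2 was at or below 0.04 TPM in all 12 libraries, and Trdn, which encodes the calsequestrin anchor triadin, at or below 0.16 TPM.

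In the store itself, the luminal calcium binding chaperone gene Calr rose from 1253 ± 8.32 TPM in control to 1494 ± 41.5 TPM with MMA+FA (SD, n = 3; log2 0.25, adjusted p = 0.000473). With FA alone it rose by 0.14, a call lost in 6 of the 12 fits with 1 library left out. Of 7 tested genes of pumps, regulators and buffers, 1 rose and 2 fell with MMA+FA, or 2 and 1 under median-ratio scaling (all genes, 6.67% higher and 32.6% lower, or 15.9% and 13.5%). The pump regulator gene Sln was listed at 0 in every library, and Pln was not analysed here.

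At the surface membrane, Slc8a1, which encodes the sodium-calcium exchanger of heart, measured 25.6, 25.7 and 24.5 TPM in control libraries, 29.3, 28.9 and 27.9 with MMA, 29.5, 31.1 and 27.8 with FA, and 34.8, 32.1 and 39.2 with MMA+FA. All treated libraries lay above control, and all MMA+FA libraries above the rest. It rose by 0.47 with MMA+FA against control (SE 0.07, adjusted p = 0.000333) and by 0.29 against MMA (adjusted p = 0.013). The rise of 0.25 against FA (adjusted p = 0.033) was lost in 4 of the 12 fits with 1 library left out. The channel gene Trpv2 fell from 6.65 ± 0.956 TPM in control to 3.65 ± 0.275 with MMA and 3.97 ± 0.673 with MMA+FA (SD, n = 3; log2 -0.71 and -0.63, adjusted p = 0.00904 and 0.00713). With FA alone Trpv2 was lower too, at 4.12 ± 1.20 TPM (log2 -0.60, adjusted p = 0.0285 in limma). That call was kept in 9 of the 12 fits with 1 library left out. Stim2, a calcium sensor of the store, fell by 0.41 with MMA+FA against control and by 0.33 against MMA (adjusted p = 0.000351 and 0.00268), and its channel partner Orai2 fell by 0.38 against control (adjusted p = 0.000925). Of 14 tested genes of this group, 1 rose and 7 fell with MMA+FA, or 2 and 3 under median-ratio scaling, beside 6.67% higher and 32.6% lower of all genes (15.9% and 13.5%). Of 7 tested subunit genes of voltage-gated channels other than Cacna1c, 0 rose and 2 fell with MMA+FA, and the same counts were found under median-ratio scaling (all genes, 6.67% higher and 32.6% lower, or 15.9% and 13.5%).

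Among genes of mitochondrial calcium uptake, Mcu fell in each treated group. Mcu, the pore of the mitochondrial uniporter, measured 175, 175 and 184 TPM in control libraries, 151, 147 and 139 with MMA, 151, 149 and 155 with FA, and 141, 146 and 143 with MMA+FA. No treated library reached the control range. It fell by 0.28 with MMA, by 0.23 with FA and by 0.31 with MMA+FA (SE 0.04, adjusted p = 0.00192, 0.00954 and 0.000229). All 8 genes of this group were tested, and 3 fell with MMA, 3 with FA and 5 in the MMA+FA comparison, none rising in any of these. Under median-ratio scaling 2, 3 and 3 fell. The shares of all genes called lower in these comparisons were 16.5%, 8.7% and 32.6% as deposited, and 6.7%, 3.65% and 13.5% under that scaling.

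Of 9 tested genes of calmodulins, kinases and their inhibitors, 0 rose and 1 fell with MMA+FA, or 3 and 0 under median-ratio scaling (all genes, 6.67% higher and 32.6% lower, or 15.9% and 13.5%). Camk2n1, which encodes an inhibitor of CaM kinase II, measured 9.71, 7.29 and 10.3 TPM with FA and 6.22, 6.32 and 6.67 TPM with MMA+FA (log2 -0.43, adjusted p = 0.0465). Median-ratio scaling ended that call (-0.37, adjusted p = 0.102), as did 9 of the 12 fits with 1 library left out.

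Of the 15 tested genes of calcineurin, NFAT and CaM kinase II-responsive transcription, 4 rose and 5 fell with MMA+FA, or 4 and 2 under median-ratio scaling (all genes, 6.67% higher and 32.6% lower, or 15.9% and 13.5%). Mef2c, a muscle transcription factor gene, rose from 29.0 ± 0.34 TPM in control to 38.7 ± 3.06 TPM with MMA+FA (SD, n = 3; log2 0.40, adjusted p = 0.000593). Hdac5, which encodes a histone deacetylase that CaM kinases export from the nucleus, rose by 0.39 with FA added to MMA (adjusted p = 0.00493). Rcan2, a calcineurin regulator gene, rose by 0.34 with MMA+FA against control (adjusted p = 0.00825), and Ppp3ca, a catalytic subunit gene of calcineurin, fell by 0.37 (adjusted p = 0.00124).

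**Figure D5:**
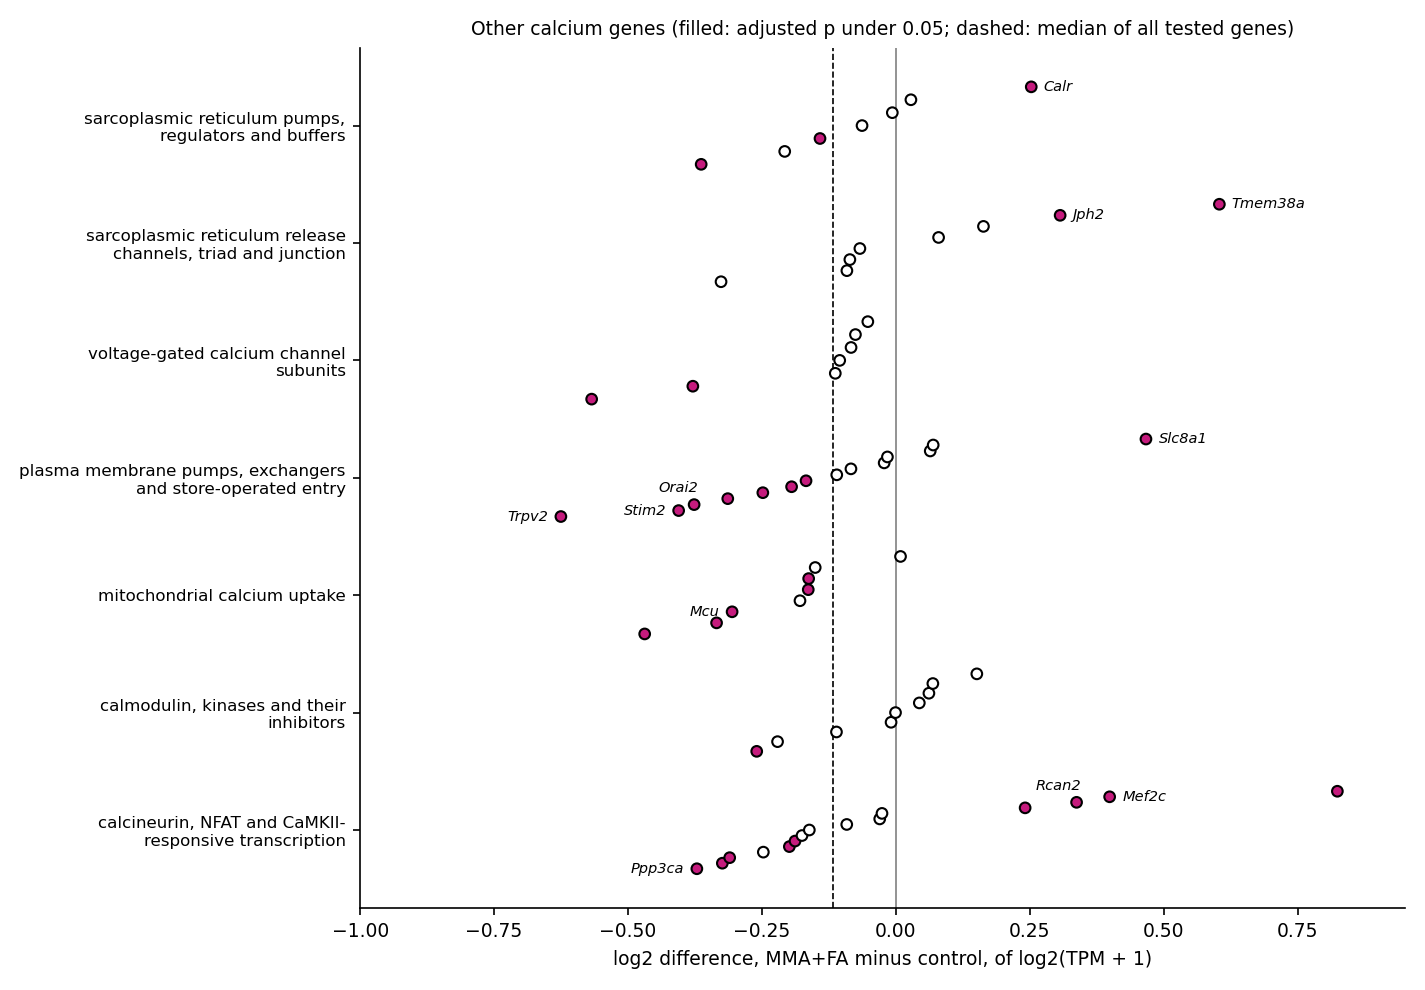
Difference in log2(TPM + 1) between MMA+FA and control for the 68 tested calcium genes that are not members, by group; filled points have an adjusted p under 0.05, the dashed line marks the median of all tested genes (-0.12), and some genes described in the text are labelled. Tmem38a, Slc8a1 and Mef2c lie to the right at 0.60, 0.47 and 0.40, and 5 of 8 genes of mitochondrial uptake are filled to the left of 0.

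Candidates for likeness were 9592 or 9593 genes with a symbol whose mean reached 5 TPM, other calcium genes included. Among them, the genes were sought whose log2(TPM + 1) over the 12 libraries was most like that of each member called in the F test. For Camk2a these were the integrin gene Itgb5, the muscle phosphofructokinase gene Pfkm and the lactate dehydrogenase gene Ldhb (Pearson's r of 0.97 each). For Casq2 they were Amot (0.98), the cardiac troponin T gene Tnnt2 (0.98) and Ldhb (0.97). For Camk2d they were Ttpal, Asap1 and Arl8a (0.96, 0.95 and 0.94), and for Cacna1c Pdcd11, Clcn2 and Ulk1 (0.96, 0.95 and 0.94). These values include the differences between groups and are the highest among all candidates, so they describe likeness only.

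Some markers of muscle differed across the same groups and others did not. The summed level of the 11 cardiomyocyte markers was 25.6 to 32.2 TPM in control libraries, 32.2 to 34.8 with MMA, 56.2 to 58.6 with FA and 78.5 to 97.6 with MMA+FA. Tnnt2 accounted for most of it, at 14.5 to 18.9, 19.7 to 22.7, 42.4 to 47.1 and 67.5 to 84.6 TPM. Nkx2-5, the other tested marker of that list, measured 10.2 to 12.2, 10.98 to 11.3, 10.8 to 14.0 and 10.1 to 12.5 TPM, with overlap of all groups. The sum of 12 skeletal muscle and myoblast markers was 404 to 409, 379 to 450, 450 to 518 and 412 to 489 TPM in the same order. The troponin gene Tnnc1 accounted for most of that sum, at 299 to 434 TPM over the 12 libraries. Only 4 of these 12 markers reached a mean of 1 TPM. Within this list Myod1 measured 69.7 to 74.2, 59.0 to 61.4, 45.7 to 61.2 and 28.2 to 34.7 TPM, and Myog 13.8 to 18.0, 13.4 to 14.8, 20.1 to 22.2 and 17.3 to 19.2 TPM. The sum of 7 smooth muscle markers was 6793 to 6837 TPM in control libraries, 6677 to 7764 with MMA, 7550 to 8186 with FA and 8286 to 8682 with MMA+FA, and that of 9 fibroblast markers was 8836 to 9539, 9180 to 10268, 10257 to 12028 and 9450 to 10799 TPM. Acta2 (4278 to 5912 TPM over the 12 libraries) and Tagln (2094 to 2398) accounted for most of the smooth muscle sum, with Myh11 at 2.04 to 3.41. Most of the fibroblast sum came from Col1a2 (4554 to 6065), Col1a1 (2003 to 3051) and Vim (1858 to 2471). Within that list Dcn (0 to 0.6) and Pdgfra (0.05 to 0.16) were near 0. The part of the markers of these lists in the rise of Camk2a and Casq2 was not tested. In bulk RNA a change in the share of cells of a type cannot be told apart from a change in RNA per cell.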

How the data were processed

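The values deposited by the authors are TPM per gene for 12 sample columns, all used. Per the submitters' processing notes, fastp and HISAT2 were used with the rat build mRatBN7.2; RSEM appears in the name of the deposited file alone. Versions, annotation release and strandedness of the counting were not given in the sources used here. Each library summed to 1e+06 TPM, so depth is unknown. TRIzol extraction and a stranded mRNA kit are named per the labels' protocols.

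Genes whose mean reached 1 TPM were kept, and log2(TPM + 1) was fitted over all 12 libraries in limma (version 3.58.1, R 4.3.3, data.table version 1.17.8) with a mean for each group and eBayes trend (8 residual and 4.32 prior degrees of freedom). Intervals are at 95%. With 3 against 3 libraries an exact permutation cannot go below p = 0.1, so limma alone was used. Tests on simulated data of 12263 genes, for MMA+FA against control, recovered 46% of genes changed by 0.3 on the log2 scale, 78% at 0.5, 96% at 1 and 98% at 2, with 13 false calls. Only 50 genes were changed at each size and all others were left unchanged. In the real comparison 39.3% of genes were called, so these rates do not give its sensitivity.

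The members, lists and comparisons were chosen with earlier results of these data known. All members are named. Of other calcium genes, those called could be named where the higher of both group means reached 5 TPM, at most 4 per direction and comparison, with Ryr2 and Slc8a1 at their levels (Pln, also in the rule, was not analysed here); part of them is named, and some genes the rule names are not reported here. Trdn, Sln and the loci in the closing section were chosen after their values were seen. Promoters, credited to RefSeq in build GRCr8, matched all 10 symbols. No 2 libraries of a group held identical values, and Pearson's r within groups was 0.987 to 0.992 across genes. Plots were drawn with Python 3.11.15 and matplotlib 3.10.9. Alternatives were other scaling, pseudocounts (0.1 and 5 TPM), filters (a mean of 5 TPM, none), no trend, a replicate block, only the groups compared, and each library left out.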

Additional observations from a re-analysis of the deposited data

How the results depend on the processing

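Depth is unknown, so the precision behind the low TPM of Camk2b and Ryr1 cannot be stated. Among members, the calls that held with any 1 library left out were those of Camk2a and Casq2 for FA, for MMA+FA and for FA added to MMA, and of Camk2d with MMA. The count of members called went from 2 to 1 with MMA, with FA and with FA added to MMA under a filter at a mean of 5 TPM, which leaves Camk2a (mean 4.52 TPM) untested. It went from 2 to 1 with MMA without a filter, where Camk2a had an adjusted p of 0.0507 in limma, from 2 to 4 with FA added to MMA under median-ratio scaling, and from 0 to 1 with MMA added to FA under that scaling. With each library left out it ranged from 1 to 3 with MMA. The cause of the changes other than that of the 5 TPM filter was not tested. The count of other calcium genes called with FA was 12, against 6 without a filter and 4 with only the groups compared. With MMA added to FA it was 10, against 6 under median-ratio scaling, 3 without a filter and 0 with only the groups compared. For the interaction it was 0, against 2 under median-ratio scaling, and 1 each with a pseudocount of 0.1 TPM, a filter at 5 TPM or no trend. With each library left out these counts ranged from 5 to 13 with MMA, 1 to 16 with FA, 8 to 19 with FA added to MMA, 0 to 16 with MMA added to FA, and 0 to 3 for the interaction. Directions that turned under median-ratio scaling belonged to differences not called as deposited: Camk2d (0.039) and Casq1 (0.0433) with MMA added to FA, and Camk2g (0.0517), Atp2a2 (0.111, called, adjusted p = 0.026 in limma) and Cacna1c (0.0262) with MMA+FA against control. Others near 0 turned with single libraries left out. Camk2b ranged from -0.0227 to 0.113 with MMA, from -0.0388 to 0.0885 with MMA added to FA and from -0.0973 to 0.0463 for the interaction. Camk2g ranged from -0.025 to 0.0478 with FA, from -0.0011 to 0.0699 with FA added to MMA and from -0.0216 to 0.0546 for the interaction. Casq1 ranged from -0.17 to 0.0251 with FA added to MMA and from -0.0916 to 0.0912 with MMA added to FA, and the Casq2 interaction from -0.0097 to 0.0431.

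Libraries with the same number share only that number: correlations of their deviations from the group means ran from -0.12 to 0.11, 1 of 18 pairs was over 0.1, and 0 of 12 libraries correlated best with their own number. With the replicate number as a block, the counts of members called against control were again 2 for MMA, 2 for FA and 3 for both acids, and those of other calcium genes were 9, 9 and 31.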

Other observations

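The following genes of the calcium lists were picked out after their values were seen. Hdac9, a class IIa histone deacetylase gene, had the largest rise of the 68 other calcium genes with MMA+FA against control (log2 0.82, adjusted p = 0.000154 in limma). Cacna1s, the pore subunit of the skeletal L-type channel, fell by 0.57 in the same comparison (adjusted p = 0.00111), and Micu3 by 0.47 (adjusted p = 0.00956). All of them are low genes, under the 5 TPM set for naming other calcium genes. Their means in control and with MMA+FA were 2.19 and 4.68 TPM for Hdac9, 2.35 and 1.26 for Cacna1s, and 4.10 and 2.69 for Micu3. Fkbp1b, whose product binds ryanodine receptors, varied widely within groups, from 6.69 to 15.6 TPM in control libraries and between 5.61 and 10.51 TPM with MMA+FA, and was not called there.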
